A study of Mus musculus with 4 samples.

Results

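The replication-type histone genes were the rows of the count table whose symbol began with Hist1h, Hist2h, Hist3h or Hist4h. They were 64 of the 26301 rows with a gene identifier, and their symbols placed 6 in the H1 class, 17 in H2A, 17 in H2B, 12 in H3 and 12 in H4. By cluster, 51 belonged to Hist1, 9 to Hist2, 3 to Hist3 and 1 to Hist4. RefSeq called 62 of them protein-coding and the other 2, Hist1h2al and Hist3h2bb, transcribed pseudogenes.

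RNA was sequenced from 2 libraries of N6 ESCs, the WT line, and 2 libraries of N8 ESCs, the Rest-/- line, to ask which transcripts differ when the repressor REST is missing. Both lines were kept in serum and LIF with feeder fibroblasts from mouse embryos, whose division had been stopped by irradiation, and the last passages were on gelatin alone, without feeders. Each genotype was represented by a single line, so genotype and line cannot be told apart, and the p-values below measure the spread between 2 biological replicates of each line. No animal age and no further allele or agent is given in the sources used here.

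Replication-type histone genes supply the bulk of the core and linker histones that package newly copied DNA, and cells transcribe them mainly in S phase. Their mRNAs are unusual in that most end in a short conserved stem-loop in place of a poly(A) tail, and the stem-loop binding protein Slbp holds this structure during processing, export, translation and decay. REST represses neuronal genes through a DNA element called RE1. The library kit used here captures mRNA by its poly(A) tail, so a histone mRNA that ends at its stem-loop is largely outside what such a library samples.

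Stem-loops were read from the genome behind the stop codons of the members, because they are the feature by which these mRNAs differ from the rest of the table. In the sequences below, taken from the coding strand of NCBIM37 (mm9) and written 5′ to 3′, capitals mark the 16 bases of the stem, loop and stem, and lower case marks 5 flanking bases on each side.
Hist1h1c: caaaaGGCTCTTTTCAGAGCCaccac
Hist3h2a: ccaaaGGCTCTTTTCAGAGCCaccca
Hist1h2bc: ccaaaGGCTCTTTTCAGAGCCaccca
Hist1h3c: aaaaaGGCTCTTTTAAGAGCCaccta
Hist1h3g: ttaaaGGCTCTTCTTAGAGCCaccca
Hist1h4d: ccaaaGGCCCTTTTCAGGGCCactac
Hist1h4i: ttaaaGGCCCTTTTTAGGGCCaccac
These 7 stretches lie at chr13:23831376-23831401 (+) for Hist1h1c, chr11:58768669-58768694 (+) for Hist3h2a, chr13:23776511-23776536 (+) for Hist1h2bc and chr13:23836911-23836936 (-) for Hist1h3c. Those of Hist1h3g, Hist1h4d and Hist1h4i lie at chr13:23627753-23627778 (+), chr13:23673814-23673839 (+) and chr13:22132830-22132855 (-). All are in the annotated 3′ UTR.

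A match to the histone stem-loop consensus was present within 100 bases after the stop codon in 58 of the 62 members with an annotated stop codon, and widening the window to 200 bases added none. Of all 21930 coding genes, the members included, 63 (0.287%) had a match in the same window on the coding strand. The stem-loop started 21 to 58 bases behind the stop codon, with a median of 30. Its letters fell into 8 versions. The version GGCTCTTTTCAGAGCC was shared by 35 members from H1, H2A, H2B and H3, and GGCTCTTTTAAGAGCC by 9. The 7 members with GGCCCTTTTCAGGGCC, the 2 with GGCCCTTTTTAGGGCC (Hist1h4i and Hist2h4) and the 2 with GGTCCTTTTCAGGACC (Hist1h4b and Hist1h4j) were all H4 genes. The remaining versions, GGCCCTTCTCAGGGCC, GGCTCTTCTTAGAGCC and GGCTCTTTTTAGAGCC, belonged to Hist1h4a, Hist1h3g and Hist2h2ac, 1 gene each. No match was found behind the stop codons of Hist1h2al, Hist1h2an, Hist2h2bb and Hist2h2be, and the sequences behind Hist2h3c2 and Hist3h2bb were not read.

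The members lay close together in the genome. Of the 63 with a position in GENCODE M1, 51 were on chromosome 13, 9 on chromosome 3, 2 on chromosome 11 and 1 on chromosome 6, and 59 had a single annotated exon. All members of chromosome 13 but Hist1h2al fell between positions 21807632 and 24026720. Hist1h2al itself lay at chr13:51298057-51298434 on the minus strand, 27.3 Mb from its nearest fellow member. A 15-base string from within the longer RE1 element, searched on both strands and required at its 12 fixed letters, was not found within 20 kb of the annotated start of any member, against 2.90% of 22380 coding genes. The nearest match was 238 kb from a member, and the median distance was 1915 kb. This covers exact matches to that string only, not partial or split forms of the element.

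Library totals ran from 22293966 to 30953863 counts, so that 3 counts corresponded to 0.0969 to 0.135 CPM, the usual unit that divides a gene's counts by its library's total, scaled here by TMM factors. Markers of ESCs such as Pou5f1 and Sox2 were abundant in every library, with summed levels of the 9 listed markers between 4132 and 4828 CPM. Both Rest-/- sums were below both WT sums, 5 of the 9 had a log2 fold change below 0, with a median of -0.10 and a lowest value of -1.36, and none was called, with 3 at an unadjusted p under 0.05. The summed level of the 10 listed feeder fibroblast markers was 50.6 CPM and 59.6 CPM in the WT libraries, 132.6 CPM in Rest-/- replicate 1 and 51.4 CPM in Rest-/- replicate 2, with Lum at 0 in all 4. Of the 8 genes of this list that were tested, 7 had a log2 fold change above 0. The median was 1.60, with none called and 1 at an unadjusted p under 0.05. The genotypes differed by a median of 1.34 in replicate 1 and -0.10 in replicate 2 on the log2(CPM + 0.5) scale. The 11 primitive endoderm markers summed to 285 CPM and 490 CPM in WT and to 590 CPM and 725 CPM in Rest-/-, with all 11 log2 fold changes above 0, a median of 0.73, none called and 3 at an unadjusted p under 0.05. Whether fibroblasts or primitive endoderm cells were present, or bear on the histone values, was not tested. The values without Rest-/- replicate 1 are given beside the comparison.

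The targeted gene was examined first. Rest (chr5:77694516-77715457, +), which encodes the repressor, was at 255 CPM and 233 CPM in the WT libraries and at 164 CPM and 176 CPM in the Rest-/- libraries. Both Rest-/- libraries were below both WT libraries, and substantial Rest RNA remained in them. The log2 fold change from WT to Rest-/- was -0.52 (SE 0.13), which did not pass edgeR's quasi-likelihood test after Benjamini-Hochberg adjustment (adjusted p = 0.526). A fit with a term for the replicate number did call Rest, along with 17.0% of all genes tested, though no stated link joins same-numbered libraries. Which bases the allele removes is not given in the sources used here, so whole-gene counts check these labels only in part.

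The members were scarce in all 4 libraries. Together they took 1268 and 1409 counts in WT replicates 1 and 2, and 1159 and 1046 counts in Rest-/- replicates 1 and 2. The median member had a mean level of 0.215 CPM, against 7.40 CPM over all rows with at least 1 count. Only 6 members reached a mean of 1 CPM, 51 of the 64 were under 0.5 CPM, and 15 had 3 counts or fewer in every library. Hist1h2af and the testis-type H2B gene Hist1h2ba were at 0 counts in all 4, which allows up to the 3-count levels given above.

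The counts were concentrated in Hist1h2al. It took 590 counts in WT replicate 1, 661 in WT replicate 2, 511 in Rest-/- replicate 1 and 427 in Rest-/- replicate 2, between 40.8% and 46.9% of all member counts in a library. Its mean level of 20.7 CPM was the highest of the members, followed by Hist3h2a at 3.58 CPM, Hist1h1c at 2.70 CPM, Hist1h2bc at 2.58 CPM, Hist3h2ba at 1.70 CPM and Hist1h4i at 1.20 CPM. Per kilobase of annotated exons, Hist1h2al stood at 54.8 CPM per kilobase and the next member, Hist1h2bc, at 3.50 CPM per kilobase. This level depends on the gene model, since GENCODE M1 gives Hist1h2al 378 bases while RefSeq gives its record, H2af-ps2, a length of 2983 bases, over which the level was 6.94 CPM per kilobase. Its coding sequence was 99.5% identical to its closest copy and had 16 near-identical copies in all.

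**Figure D1:**
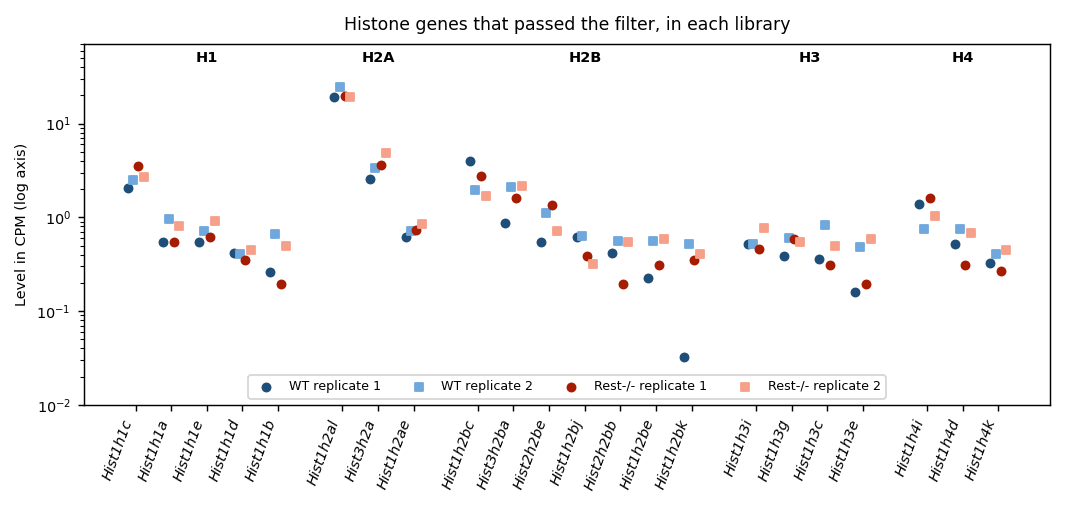
Level in CPM, on a log axis, of the 22 histone genes that passed the filter on low counts, in each of the 4 libraries, ordered by mean level within each class. Hist1h2al sat near 20 CPM in every library, most other members lay below 1 CPM, and the libraries of WT and Rest-/- overlapped in all but 4 genes.

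Levels of the replacement histones gave a scale for these values. Replacement histones are made outside S phase as well, from mRNAs with a poly(A) tail. The H2A variant gene H2afx, whose mRNA can end either way, stood at 152 CPM per kilobase of exons, and H3f3b, which encodes the replacement form of H3, at 97.7 CPM per kilobase. The centromeric H3 gene Cenpa had 52.4 CPM per kilobase, H3f3a had 9.06 CPM per kilobase and the H2A variant gene H2afz had 6.17 CPM per kilobase. The median over the 63 positioned members was 0.358 CPM per kilobase.

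A longer annotated 3′ end went with the higher totals among members that have a stem-loop. In 19 members the annotation ran over 100 bases beyond the stem-loop, and these had a median of 0.253 CPM and a maximum of 3.58 CPM, with 5 at or above 1 CPM. The other 39 members with a stem-loop had a median of 0.194 CPM and a maximum of 0.719 CPM, with none at 1 CPM. Annotated ends reached 839 bases past the stem-loop in Hist1h1c, 1487 bases in Hist3h2a, 150 bases in Hist1h4i and 166 bases in Hist3h2ba. In Hist1h2bc a further exon put the annotated end 7826 bases downstream. The gene models over which the reads were counted are not given. Per kilobase of GENCODE M1 exons the medians were 0.338 CPM per kilobase for the longer group and 0.452 CPM per kilobase for the shorter, the opposite order. Per kilobase of coding sequence they were 0.615 CPM and 0.572 CPM per kilobase. The part of model length in these levels was not tested. The 4 members with no match held both Hist1h2al and Hist1h2an, at 0.0377 CPM, and had a median of 0.683 CPM. The letters AATAAA, found in most poly(A) signals, occurred on the coding strand within 500 bases of the stop codon in 8 members, against 41.3% of coding genes. This window stops short of the annotated ends of Hist1h1c, Hist3h2a and Hist1h2bc, where the letters were not sought.

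**Figure D2:**
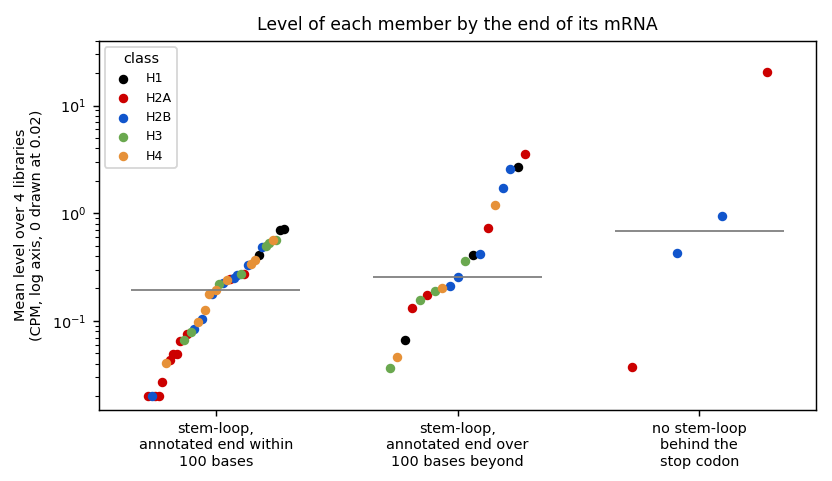
Mean level of each member over the 4 libraries, in CPM on a log axis with 0 drawn at 0.02, grouped by the end of its mRNA, with classes in colour and a line at each group's median. The groups overlapped over most of their range, and the 5 members with a stem-loop at or above 1 CPM were all in the group whose annotated end lay over 100 bases beyond it.

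RNAs that carry no poly(A) tail gave a second measure of what these libraries held. Rpph1, the RNA of ribonuclease P, had 69 and 71 counts in WT and 52 and 61 counts in Rest-/-. The 7 such rows found in the table summed to 140 CPM and 68.5 CPM in WT and to 137 CPM and 73.9 CPM in Rest-/-, and Snord22, which sits inside a host gene's transcript, held most of this. Without Snord22 the sums were 16.3, 15.0, 17.1 and 15.2 CPM in the same order of libraries, and Snora65, also encoded inside a host gene, made up 12.7, 11.4, 14.2 and 11.6 CPM of them. The part of such RNA in the histone counts was not tested.

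Turning to the genotypes, 22 members passed the filter on low counts and 42 did not, the latter having at most 11 counts in any library. None of the 22 was called higher or lower in Rest-/- by edgeR's quasi-likelihood test at an adjusted p under 0.05, where 9 of 15444 genes (0.0583%) were called. None had an unadjusted p under 0.05 either, against 6.71% of all genes tested. The exact tests with tag-wise or common dispersion and DESeq2 called no member as well, while calling 1.51%, 2.22% and 1.54% of all genes. The lowest adjusted p was 0.941, for Hist1h2bj, and the other 21 rounded to 1.

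The precision behind these values was limited. The 95% interval of the log2 fold change held 0 in all 22, and only that of Hist1h2al lay wholly between -1 and 1. Standard errors ran from 0.22 to 1.11 with a median of 0.51, against a median of 0.28 over all genes tested. Deviations of same-numbered libraries correlated at 0.807 over all genes tested, and the main fit held no term for the replicate number. Differences that such libraries shared therefore stay in these standard errors. In the other 21 the interval still held a 2-fold change in at least 1 direction, and the missed threshold does not show equal levels. The log2 fold change was above 0 in 12 members and below 0 in 10 (49.2% of all genes tested were above 0), with a median of 0.19 against -0.0047 over all genes. Measured within replicate 1, the median difference on the log2(CPM + 0.5) scale was 0.060, and within replicate 2 it was -0.0020.

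**Figure D3:**
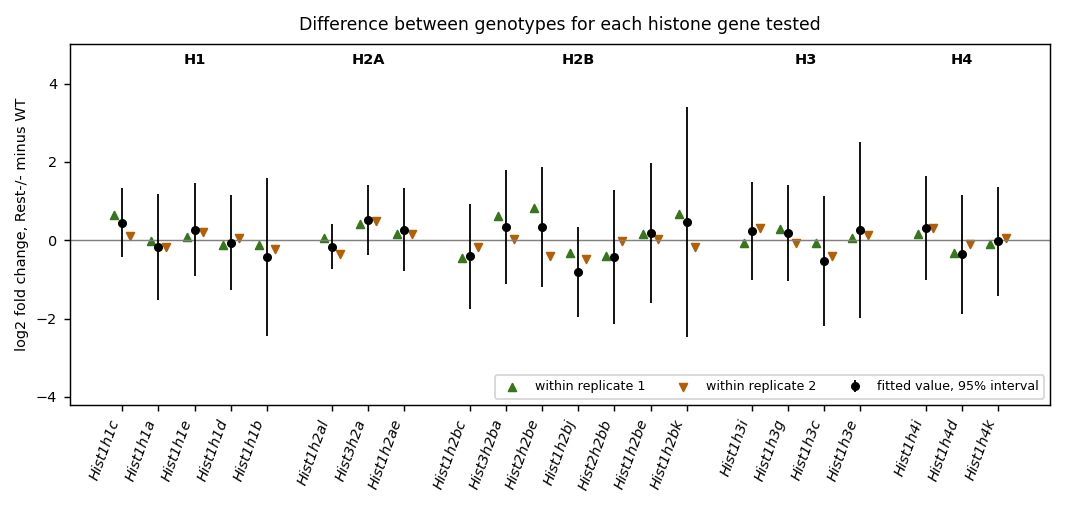
Log2 fold change from WT to Rest-/- of each histone gene tested, with black points and bars for the fitted value and its 95% interval, and triangles for the differences of log2(CPM + 0.5) within replicate 1 and within replicate 2. All 22 intervals cross 0, and the triangles of 7 genes lie on opposite sides of it.

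Linker histones of the H1 class bind the DNA between nucleosomes. Hist1h1c had 64 and 67 counts in WT and 91 and 60 counts in Rest-/-, or 2.07, 2.50, 3.52 and 2.71 CPM. Both Rest-/- libraries were above both WT libraries, and the log2 fold change was 0.45 (SE 0.33, interval -0.44 to 1.34). Hist1h1a had 17, 26, 14 and 18 counts and Hist1h1e had 17, 19, 16 and 20 counts, in the order WT replicates 1 and 2 and Rest-/- replicates 1 and 2, which is kept in what follows. The groups overlapped in both, with log2 fold changes of -0.16 (SE 0.51) and 0.27 (SE 0.45). The median of the 5 H1 genes tested was -0.06, and Hist1h1t, the testis-specific member, had at most 3 counts.

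Among the H2A genes, which encode a core histone that pairs with H2B, Hist1h2al was at 19.1, 24.7, 19.8 and 19.3 CPM. WT replicate 2 was the highest library and the other 3 lay within 1 CPM of each other. The log2 fold change was -0.16 (SE 0.22, interval -0.74 to 0.41), and it was 0.036 without WT replicate 2. Hist3h2a, a gene of the small Hist3 cluster, had 79, 89, 93 and 107 counts, or 2.55, 3.32, 3.60 and 4.83 CPM. Its Rest-/- libraries were both above the WT libraries, with a log2 fold change of 0.52 (SE 0.34, interval -0.38 to 1.42, adjusted p = 1.00 by edgeR's quasi-likelihood test). An exon of Trim17 overlaps Hist3h2a on the same strand, so reads of the 2 genes may be mixed. Hist1h2ae had 19 counts in each of the 4 libraries, which at their different depths gave 0.614, 0.709, 0.735 and 0.858 CPM and a log2 fold change of 0.27 (SE 0.40). The remaining 14 H2A genes were not tested, and 9 of the 17 had 3 counts or fewer in every library.

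The H2B class held the most tested members, 7 of 17. Hist1h2bc had 122, 52, 71 and 37 counts, or 3.94, 1.94, 2.75 and 1.67 CPM. Replicate 1 was the higher library in both genotypes and the groups overlapped, with a log2 fold change of -0.41 (SE 0.51). Hist3h2ba, its counterpart in the Hist3 cluster, had 27, 57, 42 and 48 counts, and here WT replicate 1 was the low library (log2 fold change 0.34, SE 0.55). Hist2h2be had 17, 30, 35 and 16 counts, so that the difference between genotypes was 0.82 within replicate 1 and -0.41 within replicate 2 on the log2(CPM + 0.5) scale. Hist2h2bb had 13, 15, 5 and 12 counts (log2 fold change -0.43, SE 0.64). Both Hist2 genes lack a match to the stem-loop and neither has a near-identical copy. A further pair was singled out after its values were seen. Hist1h2bj had 19, 17, 10 and 7 counts, the only one of the 22 tested members with both Rest-/- libraries below both WT libraries in CPM, and its log2 fold change of -0.81 (SE 0.43, interval -1.97 to 0.34) was the furthest from 0 among those tested. Hist1h2bk had 1, 14, 9 and 9 counts, and its log2 fold change of 0.47 (SE 1.11) rested on the single count in WT replicate 1.

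H3 and H4 form the tetramer at the centre of the nucleosome. Of the H3 genes, Hist1h3i had 16, 14, 12 and 17 counts, Hist1h3g had 12, 16, 15 and 12 counts, and Hist1h3c had 11, 22, 8 and 11 counts. The genotypes overlapped in all 3, with log2 fold changes of 0.24 (SE 0.47), 0.19 (SE 0.46) and -0.54 (SE 0.63). Of the H4 genes, which all encode nearly the same small protein, Hist1h4i had 43, 20, 42 and 23 counts, or 1.39, 0.747, 1.63 and 1.04 CPM. As in Hist1h2bc, replicate 1 was higher than replicate 2 in both genotypes, and the log2 fold change was 0.32 (SE 0.50). Hist1h4d had 16, 20, 8 and 15 counts (log2 fold change -0.36, SE 0.57) and Hist1h4k had 10, 11, 7 and 10 counts (-0.03, SE 0.52). The 4 H3 genes tested had a median of 0.21 and the 3 H4 genes a median of -0.03, beside 0.27 for the 3 H2A genes and 0.19 for the 7 H2B genes. Hist4h4, the only member of its cluster, had 4, 7, 3 and 6 counts and was not tested.

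Both Rest-/- libraries lay above both WT libraries in 3 of the 22 members, Hist1h1c, Hist1h2ae and Hist3h2a, where 16.5% of all genes tested did so, and below them in Hist1h2bj alone, where 15.4% of all genes did so. Neither count was above its background. The log2 fold change took the other sign when a single library was left out in 18 of the 22, and the median over the members moved from -0.17 without WT replicate 1 to 0.34 without WT replicate 2. Without Rest-/- replicate 1, in which the fibroblast markers were high, the median was 0.20, and without Rest-/- replicate 2 it was -0.16. These fits tested 24 to 27 members. Over those of the 22 members that each fit tested, the medians were -0.19, 0.33, 0.15 and -0.16 in the same order. No member was called in these 4 fits, in which the genotype with a lone library is assumed to vary like the other, so that they say little about stability.

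Sums over a class count every member, tested or not, and depend less on how shared reads were divided among near-identical copies. Of the 62 members with a coding sequence that could be compared, 49 had another gene whose coding sequence matched theirs at 90% or more of the bases across 80% or more of its length, while none of the 6 H1 genes had any. Summed levels of H1 were 3.91, 5.30, 5.34 and 5.42 CPM, where WT replicate 1 stood low and the other 3 libraries were close to each other, both Rest-/- libraries being just above WT replicate 2. H2A with Hist1h2al summed to 23.0, 30.2, 25.2 and 26.4 CPM. The ratio of Rest-/- to WT was 0.969, with 1.10 within replicate 1 and 0.872 within replicate 2. H2A without Hist1h2al summed to 3.94, 5.56, 5.46 and 7.09 CPM, a ratio of 1.32, with 1.38 within replicate 1 and 1.27 within replicate 2. The genotypes overlapped in both sums, and the direction of the ratio depended on this 1 gene. H2B summed to 8.04, 9.63, 8.55 and 7.95 CPM, H3 to 2.36, 3.88, 2.52 and 3.57 CPM, and H4 to 3.65, 3.55, 3.21 and 3.93 CPM. In each of these 3 classes the genotypes overlapped as well. All members together summed to 46.8 ± 8.24 CPM in WT and 46.0 ± 1.67 CPM in Rest-/- (SD, n = 2 each), a ratio of 0.984, with 1.10 within replicate 1 and 0.898 within replicate 2. Without Hist1h2al the sums were 24.9 ± 4.26 CPM and 26.5 ± 2.03 CPM, a ratio of 1.06. With 2 libraries against 2, no exact permutation test can give a two-sided p below 0.33, so none was run.

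**Figure D4:**
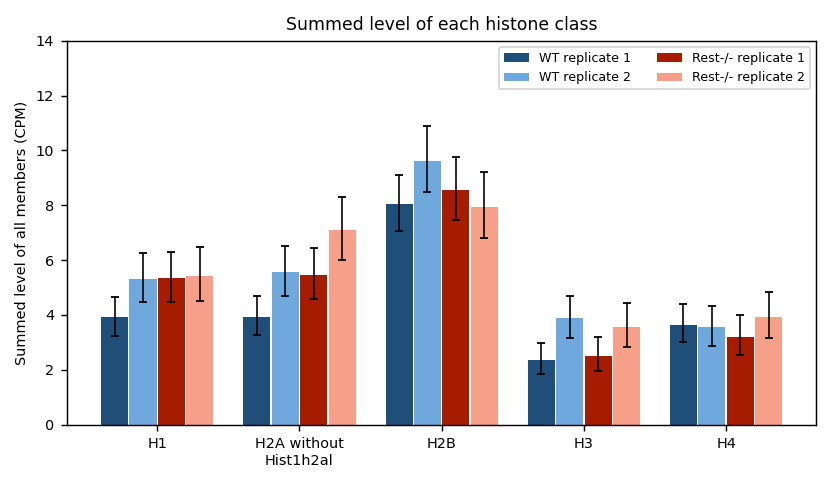
Summed level in CPM of all members of each class in the 4 libraries, with bars from 0 and error lines for the 95% Poisson interval of the summed counts, which covers counting error only. In H3, both replicate 2 libraries stood above both replicate 1 libraries (3.88 CPM and 3.57 CPM against 2.36 CPM and 2.52 CPM), and Hist1h2al is left out of H2A because it alone was near 20 CPM.

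Differences between replicates were compared with those between genotypes. The median absolute difference between replicates was 0.33 on the log2(CPM + 0.5) scale, against 0.19 between genotypes, and over all genes tested the same values were 0.30 and 0.16. The genotype difference averages 2 libraries on each side, which by itself makes it the smaller of the pair. Replicate 2 was higher than replicate 1 in both genotypes in 14 of the 22 members (63.6%), where 40.7% of all genes tested were. The reverse held in 2 members, Hist1h2bc and Hist1h4i, or 9.09%, where 41.8% of all genes did so. The median difference of replicate 2 minus replicate 1 was 0.30 in both WT and Rest-/-, and over all genes it was 0.00079 and -0.013. The 22 members share sequence and libraries, so they are not independent, and what the replicate numbers mark is not given in the sources used here.

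Genes that make and process histone mRNA were measured at higher counts. Of the 29 listed, 28 were found and 27 tested. None was called in either direction, the median log2 fold change was 0.02, and 1 had an unadjusted p under 0.05. Slbp had 3265, 2225, 2785 and 1957 counts and a log2 fold change of 0.06 (interval -0.46 to 0.57). Npat, the coactivator of histone transcription in S phase, had 2504, 1465, 2280 and 1282 counts, with replicate 1 above replicate 2 in both genotypes (log2 fold change 0.11). Casp8ap2, also needed for histone gene transcription, showed the same order more strongly, with 3442, 1297, 2967 and 1089 counts (log2 fold change 0.04, interval -1.48 to 1.56). Lsm10 and Lsm11, subunits of the particle that cuts the histone precursor behind the stem-loop, had 548, 510, 408 and 402 counts and 470, 722, 430 and 510 counts, and their groups overlapped in CPM. Slbp, Npat and Casp8ap2 were thus higher in replicate 1 of both genotypes in CPM, while replicate 2 was the higher one in Lsm10, Lsm11 and most of the tested histone genes.

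Replacement histones, chaperones and cell-cycle genes gave the background of the same supply chain. Of 16 listed replacement and variant histone genes, 12 were tested and none was called or had an unadjusted p under 0.05, with a median of 0.03. A fit with a term for the replicate number called genes that included H2afx, H3f3b and H1f0, and 17.0% of all genes tested. No stated link joins same-numbered libraries. H2afx stood at 166, 209, 184 and 269 CPM, with overlapping groups (log2 fold change 0.27, interval -0.37 to 0.91). H3f3b stood at 281, 241, 331 and 309 CPM, both Rest-/- libraries being above both WT libraries. Without that term it did not pass edgeR's quasi-likelihood test (log2 fold change 0.29, SE 0.14, adjusted p = 0.887). H1f0, the replacement linker histone, stood at 28.1, 55.0, 38.0 and 78.1 CPM, replicate 2 being high in both genotypes (log2 fold change 0.48, interval -0.81 to 1.78). The intervals were -0.62 to 0.78 for H2afz, -0.36 to 0.47 for H3f3a and -0.50 to 0.24 for Cenpa. None of the 23 histone chaperone genes was called, with a median of 0.014 and 1 gene at an unadjusted p under 0.05. The 35 S phase genes, also with none called, had a median of -0.07, 8 of them above 0, where 49.2% of all genes tested were, and 2 at an unadjusted p under 0.05. The 14 G2 and M phase genes tested had a median of -0.04, with none called and none at an unadjusted p under 0.05.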

How the data were processed

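RNA was measured in 2 WT and 2 Rest-/- ESC libraries, grouped by the genotype in the labels. The authors mapped reads with Subread and assigned them with featureCounts, with mm9 named in the submitters' processing notes, and deposited whole-number counts per gene without normalization. The annotation, the use of strand and the treatment of reads with several matches are not given in the sources used here. A read shared by near-identical histone genes may therefore have been split, assigned to 1 of them or dropped, and 368 rows without identifier or values were left out.

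Counts were tested in R 4.3.3 with edgeR 4.0.16 (TMM, filterByExpr, quasi-likelihood test, prior count 0.125, Benjamini-Hochberg over all 15444 genes tested, threshold 0.05), with DESeq2 1.42.0 and both edgeR exact tests as alternatives. The test was checked on simulated counts. Single libraries were compared on log2(CPM + 0.5). Positions and stem-loops came from GENCODE M1 on NCBIM37, names from RefSeq (GRCm38.p6), which matched all 64 members, and copies from BLAST 2.17.0. Python 3.11.15 with pandas 2.3.3, numpy 2.4.6, scipy 1.17.1 and matplotlib 3.10.9 did the rest.

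Named were Rest, the 3 tested members of highest mean CPM in each class, in each class the members with the largest positive and negative log2 fold change at a mean of at least 1 CPM, tested members outside Hist1, and 11 pathway genes fixed by name; a called member or pathway gene would also have been named. Members, lists and rule were chosen with earlier results of these data known. The depth limits each library to 0.0969 to 0.135 CPM at 3 counts, which, like the Poisson intervals, covers counting error only.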

Additional observations from a re-analysis of the deposited data

How the results depend on the processing

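No member was called in any of the 14 settings, the main one included. The numbers called over all genes, 8 higher and 1 lower, became 49 and 4 without the filter, 3 and 0 with at least 10 counts in every library, 179 and 54 with the tag-wise exact test, 246 and 97 with the common one, and 180 and 58 with DESeq2. Same-numbered libraries deviated together (correlation 0.807 over 15444 genes), but there are only 2 pairs. What these libraries share beyond the number is not stated. With the replicate block 1308 genes were called higher and 1313 lower, among them Rest (adjusted p = 0.00166 in edgeR), H3f3b (0.00896), H1f0 (0.00366) and H2afx (0.0334), and no member, the lowest adjusted p of a member being 0.158 (Hist3h2a) there and 0.534 or more in every other setting. The median log2 fold change without the filter was -0.032 over 62 members, 0.10 for H1, 0.14 for H2A, -0.048 for H2B and -0.068 for H3. With at least 10 counts in every library it was 0.27 over 12 members, 0.27 for H1 and 0.31 for H4, and by library size alone 0.28 for H2A. Here the set of members tested differed, except in the last. Leaving out each library in turn, with the lone library of a genotype assumed to vary like the other genotype, gave 54 to 88 genes called higher and 6 to 25 lower. The medians then, over 24 to 27 members tested, ran from -0.17 to 0.34 over all members, -0.26 to 0.39 in H1, 0.031 to 0.55 in H2A, -0.28 to 0.86 in H2B, -0.44 to 0.39 in H3 and -0.43 to 0.21 in H4. The median level was 0.609 CPM per kilobase with coding length in place of exon length. Of the 16 members named by the rule, 13 took the other sign without some library and 3, Hist1h1c, Hist1h2ae and Hist3h2a, did not. Their ranges were -0.53 to 0.30 for Hist1h1a, -0.025 to 0.52 for Hist1h1e, -0.34 to 0.036 for Hist1h2al, -0.83 to 0.18 for Hist1h2bc, -0.17 to 1.12 for Hist3h2ba, -0.20 to 0.92 for Hist2h2be, -1.32 to 0.15 for Hist2h2bb, -1.03 to 0.17 for Hist1h3c, -0.094 to 0.53 for Hist1h3g, -0.17 to 0.56 for Hist1h3i, -1.02 to 0.11 for Hist1h4d, -0.055 to 0.83 for Hist1h4i and -0.43 to 0.30 for Hist1h4k. Among the other genes they were -0.10 to 0.23 for Slbp, -0.22 to 0.41 for Npat, -0.69 to 0.75 for Casp8ap2, -0.45 to 0.39 for Lsm11, -0.12 to 0.31 for H2afz, -0.037 to 0.52 for H2afx and -0.13 to 1.05 for H1f0. The cause of these shifts was not tested. Depth also limits these values, since 57 of the 64 members had under 31 counts in every library.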

Other observations

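RefSeq gives a histone symbol to 4 further identifiers of the table, which carried another or no symbol there and so were outside the rule. In the order WT replicates 1 and 2 and Rest-/- replicates 1 and 2, H2bc23 had 6, 4, 5 and 3 counts, the row LOC665622 had 7, 8, 7 and 3 counts, the row RP23-480B19.10 had 2, 5, 2 and 0 counts, and H2ac18 had 3, 5, 3 and 3 counts. These are levels like those of the untested members. Without WT replicate 2, Hist1h2bk, which had a single count in WT replicate 1, had a log2 fold change of 3.36 and an adjusted p of 0.534 in edgeR, against 0.47 and 1.00 with all 4 libraries. The spread in that fit came from the Rest-/- pair alone.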
